A study of Homo sapiens with 8 samples.

Results

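The cyclin-dependent kinases and cyclins described here are 10 genes, chosen by name and split by the phase of the cell cycle in which their products act. The 6 genes of G1 phase were CDK4, CDK6, CCND1, CCND3, CCNE1 and CCNE2, and the 4 genes of S phase to mitosis were CDK1, CDK2, CCNA2 and CCNB1. They were measured by 27 probe sets that carry the symbol of 1 of these genes and of no other gene, 16 for the G1 genes and 11 for the S to M genes, out of 41091 single-gene probe sets for 19752 genes in all. One group was DLD-1 cells, a human colon cancer cell line, that received a miR-143 duplex at 50 nM (4 arrays), and the other was mock-transfected DLD-1 cells (4 arrays). Lipofectamine 2000 is the transfection reagent given for both groups, RNA was taken after 24 h, and each sample was hybridised to its own Affymetrix HG-U133 Plus 2.0 array. The question of the array experiment was which transcripts change when miR-143 is put back into these cells. The methods name a scrambled siRNA as the control of transfections in general, and for the arrays the sources used here do not say whether the mock cells received it, although in the reporter assay of the study mock stood apart from the scrambled control. If they received none, the effect of the miR-143 sequence and that of any duplex cannot be told apart.

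A cyclin-dependent kinase is active only when a cyclin is bound to it, and cyclins are made and destroyed in turn as a cell passes through its cycle. In G1 the D cyclins bind CDK4 and CDK6, and these complexes phosphorylate the retinoblastoma protein, which releases the E2F transcription factors, and E cyclins with CDK2 then carry the cell into S phase. Cyclin A2 acts with CDK2 and CDK1 from S phase onwards, and cyclin B1 with CDK1 drives entry into mitosis.

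Mature miR-143 is given first because its seed (bases 2 to 8, in capitals) is the part that pairs with messenger RNAs, and the sequence of the duplex itself was not given in the sources used here. The promoter windows that follow are those of CDK1 and CCNB1, which share the motif CCAAT, and of CDK6, whose log2 fold change had the opposite sign. A link between promoter motifs and log2 fold changes was not tested. All sequences are from RefSeq on GRCh38.p14. The promoters run from 180 bases before to 20 bases after the annotated start, read along the gene, with any match to the searched motifs in capitals.
hsa-miR-143-3p: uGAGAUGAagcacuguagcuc
CDK1 promoter: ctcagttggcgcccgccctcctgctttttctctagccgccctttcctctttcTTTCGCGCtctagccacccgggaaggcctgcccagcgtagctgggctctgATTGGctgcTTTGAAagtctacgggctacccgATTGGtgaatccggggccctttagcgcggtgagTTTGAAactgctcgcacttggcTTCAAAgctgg
CCNB1 promoter: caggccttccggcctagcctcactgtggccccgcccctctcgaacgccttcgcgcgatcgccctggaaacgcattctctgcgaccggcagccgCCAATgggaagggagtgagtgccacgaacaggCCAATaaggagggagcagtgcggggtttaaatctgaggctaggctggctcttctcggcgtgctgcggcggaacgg
CDK6 promoter: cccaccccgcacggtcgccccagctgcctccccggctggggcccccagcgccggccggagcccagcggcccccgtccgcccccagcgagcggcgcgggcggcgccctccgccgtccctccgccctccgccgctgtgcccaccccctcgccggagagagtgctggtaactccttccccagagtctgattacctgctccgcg
The miRNA lies at chr5:149428978-149428998 on the plus strand, and 3 of 2545 mature human miRNAs in the table share its seed, the others being hsa-miR-4770 and hsa-miR-6088. The windows are chr10:60778298-60778497 on the plus strand for CDK1, chr5:69166970-69167169 on the plus strand for CCNB1 and chr7:92836554-92836753 on the minus strand for CDK6. The motifs searched on both strands were TTTGAA (the cell cycle homology region, CHR), TTTCGCGC, TTTCGCGG, TTTGGCGC and TTTGGCGG (E2F) and CCAAT. Only these exact letters were searched, so other spellings of a motif were not counted. On the opposite strand the CHR reads TTCAAA and the CCAAT motif reads ATTGG. The CDK1 window held the CHR 69 and 13 bases before the start and 9 bases after it. It also held an E2F match 128 bases before the start and CCAAT motifs 78 and 46 bases before it, with no overlap between matches. CDK1 had 2 entries with overlapping windows, and the printed one has the start further along the gene. The other entry held the CHR 161 bases before its start, an E2F match 19 bases after it and CCAAT 150 bases before it. The CCNB1 window held CCAAT 87 and 55 bases before the start, and none of the letters searched for the other motifs. None of the searched letters occurred in the CDK6 window or in the other of the 2 CDK6 entries. Of 35116 promoter windows of 300 bases, 15.2% held the CHR, 2.19% an E2F match and 34.6% CCAAT. An entry was found for 7 of the 10 genes. Among those not printed, CCNA2 held ATTGG 56 bases before its start, CCND3 held CCAAT in 2 of its 3 windows, and CDK4 and CCNE1 held none of the searched letters. The log2 fold changes were 0.003 for CCNA2, 0.009 for CCND3, -0.09 for CDK4 and 0.05 for CCNE1.

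The array medians lay between 7.15 and 7.24 on the log2 scale. In both groups replicate 4 was separated from the other arrays by the first principal component (66.9% of the variance). In limma's comparison of miR-143 with mock arrays, 0 of 19752 genes (0.0%) had an adjusted p under 0.05, and at an unadjusted p under 0.05 1.7% of genes were lower and 0.714% higher. When the replicate number was entered as a pair, 0.623% of genes were called lower and 0.167% higher. The numbers pair the arrays unevenly: the correlation of miR-143 replicates 3 and 4 with the mock array of the same number (0.58 and 0.81) exceeded that with any other mock array (at most 0.49 and -0.31), whereas replicates 1 and 2 correlated more with a mock array of another number (0.25 against 0.11 and 0.54 against 0.17). Each call with pairs below rests on this pairing. Of all genes 1.24% had each miR-143 array below each mock array and 0.719% had each above. The colon epithelial markers EPCAM, CDH1 and KRT18 averaged 13.60, 12.85 and 14.65 over the 8 arrays, while VIL1, CDX1 and LGALS4 averaged 7.60, 7.73 and 7.12, near the array medians. The 8 measured markers of other cell types (blood, vessel, connective tissue and liver) averaged 6.65 to 8.14. Precision is limited by the number of arrays, and p-values measure the spread between these samples, which the study's methods describe as biological replicates.

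CDK6, a kinase partner of the D cyclins in G1, was higher with miR-143, and at the brightest probe sets over all 8 arrays its difference was the largest of the 10 genes. Its brightest probe set, 224847_at, read 9.55, 9.56, 9.57 and 9.87 in miR-143 replicates 1 to 4, against 9.21, 9.24, 9.09 and 9.54 in mock replicates 1 to 4. Each miR-143 array lay above each mock array, although the lowest miR-143 array exceeded mock replicate 4 by only the last digit printed. The log2 fold change was 0.37 (95% interval 0.13 to 0.61), or 1.29-fold. An exact two-sided permutation test gave p = 0.0286, the smallest that 4 against 4 arrays allow. Limma gave an unadjusted p of 0.00669 and an adjusted p of 1 without pairs, and an adjusted p of 0.00684 with pairs (95% interval 0.26 to 0.48). Within the replicate numbers the difference was 0.34, 0.32, 0.48 and 0.34. The call with pairs ended when pair 3 was left out (adjusted p = 0.0565 from limma) and remained without pair 1, 2 or 4 (0.0371, 0.0354 and 0.038). After cyclic loess between the arrays, which removes differences that depend on brightness, CDK6 passed without pairs as well (adjusted p = 0.0167 from limma, 0.00535 with pairs). Arrays of whole cultures cannot separate a change in every cell from a change in the share of cells that hold the transcript.

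The other 6 CDK6 probe sets differed among themselves. Probe set 224848_at read 8.63, 8.62, 8.48 and 9.02 with miR-143, against 8.27, 8.35, 8.30 and 8.54 in mock arrays. Only miR-143 replicate 3 lay within the mock range. Its log2 fold change was 0.32, with an adjusted p of 0.0347 from limma with pairs over all probe sets, and this call ended with any single pair left out (0.0888 to 0.189). Probe set 224851_at read 8.63, 8.67, 8.44 and 8.97 with miR-143, against 8.41, 8.34, 8.16 and 8.88 in mock arrays, so its groups overlapped while each miR-143 array lay above the mock array of its number. Its log2 fold change was 0.23 (limma with pairs, adjusted p = 0.123). The remaining 4 sets, all at mean values of 6.71 to 7.88, had log2 fold changes of -0.01 to 0.12 (limma with pairs, adjusted p = 0.512 to 0.971). Averaged over its 7 probe sets, CDK6 had a log2 fold change of 0.16 (limma with pairs, adjusted p = 0.165, 1 without), which is smaller in size than the averages of CDK1 (-0.265) and CCND1 (-0.224). At the brightest sets CDK1 also differed more than CDK6 without miR-143 replicate 4 (-0.362 and 0.292), as did CCND1 (-0.358). The same held for CDK1 without mock replicate 2 (-0.372 and 0.360) and without mock replicate 3 (-0.358 and 0.310).

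**Figure D1:**
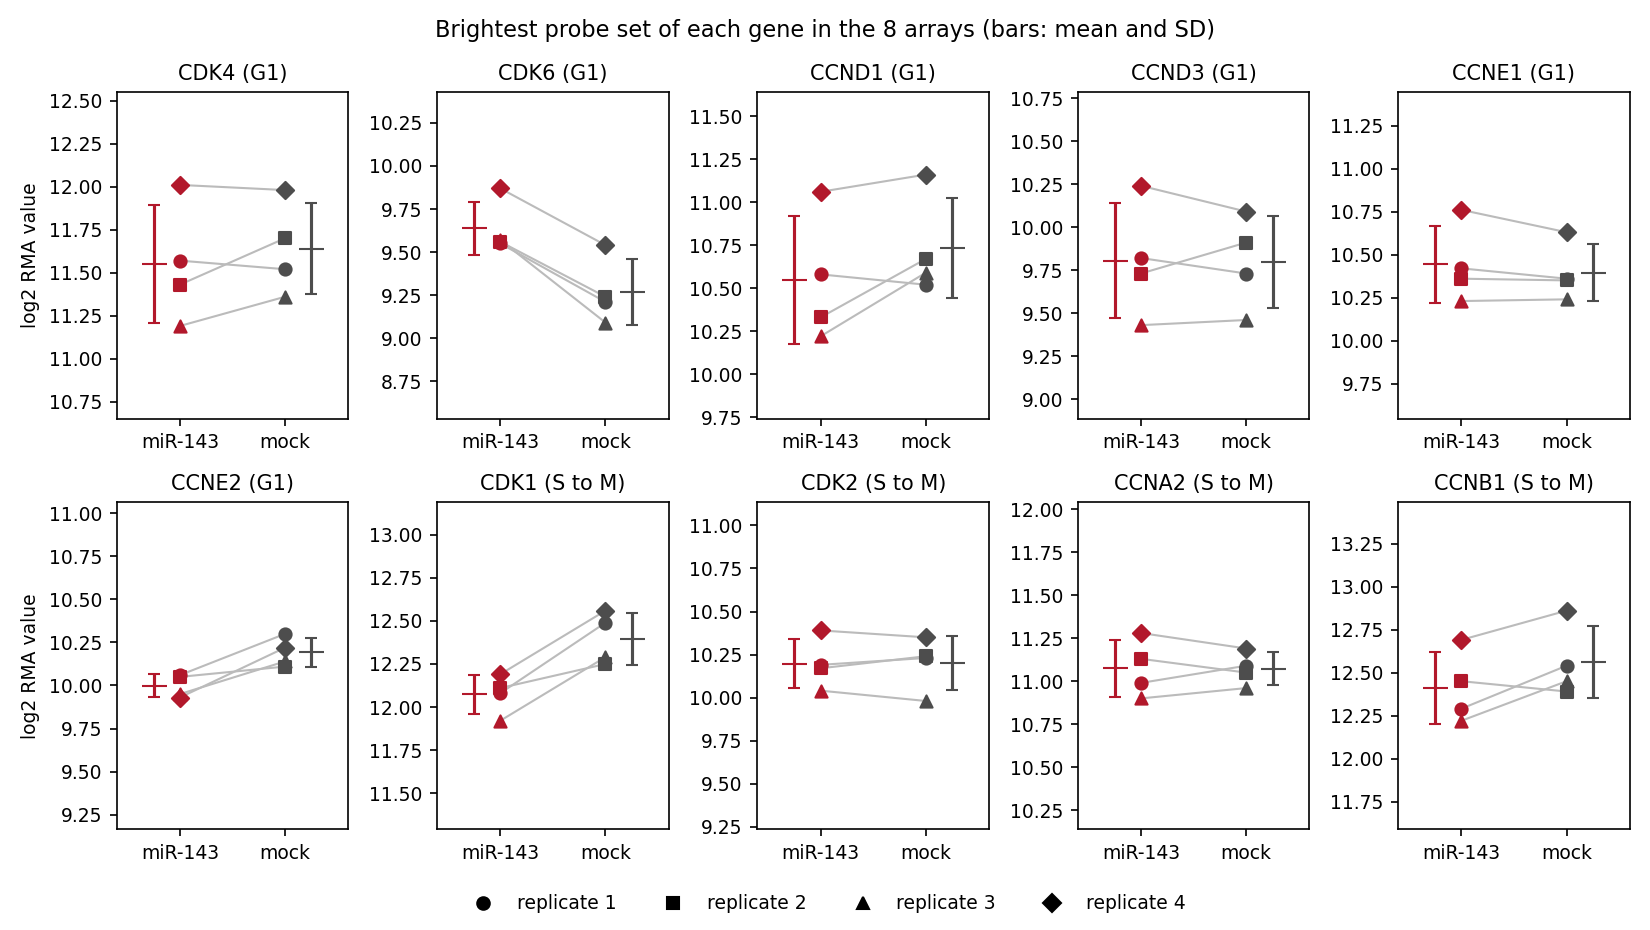
Log2 RMA values (vertical axes, of equal span but shifted from panel to panel) of the brightest probe set of each of the 10 genes in the miR-143 arrays (red, left) and the mock arrays (grey, right), with grey lines joining equal replicate numbers and bars giving the mean and SD of 4 arrays. CDK6 lay higher in each miR-143 array (9.55 to 9.87 against 9.09 to 9.54), CDK1 lay lower (11.92 to 12.19 against 12.25 to 12.56), and replicate 4 was the highest array of both groups in every gene but CCNE2.

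CDK1, the kinase of mitotic entry, was the lower counterpart. Its brightest probe set, 203213_at, read 12.08, 12.11, 11.92 and 12.19 in miR-143 arrays, against 12.49, 12.25, 12.29 and 12.56 in mock arrays. The groups did not overlap, with miR-143 replicate 4 closest to mock replicate 2. The log2 fold change was -0.32 (95% interval -0.52 to -0.12), a ratio of 0.8, and the exact two-sided permutation test again gave p = 0.0286. Limma gave an unadjusted p of 0.00507 and an adjusted p of 1 without pairs, and an adjusted p of 0.0298 with pairs (95% interval -0.45 to -0.20). Replicate 2 showed the smallest difference, -0.14, against -0.41, -0.37 and -0.36 in replicates 1, 3 and 4. The call with pairs was kept without pair 2 (adjusted p = 0.026 from limma) and was lost without pair 1, 3 or 4 (0.153, 0.165 and 0.16), where the log2 fold change was -0.291, -0.305 and -0.307. After cyclic loess between the arrays the log2 fold change was -0.245 (adjusted p = 0.051 with pairs), and with the mean over all its probe sets -0.265 (0.239).

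The other 3 CDK1 probe sets lay on the same side. Probe set 210559_s_at read 11.29, 11.43, 11.12 and 11.50 with miR-143, against 11.61, 11.49, 11.61 and 11.67 in mock arrays, and only miR-143 replicate 4 exceeded a mock array. Probe set 203214_x_at, whose suffix marks probes that can bind unrelated transcripts, read 11.07, 11.17, 10.87 and 11.25 with miR-143, against 11.32, 11.23, 11.30 and 11.43. Their log2 fold changes were -0.26 and -0.23. The dimmer set 231534_at read 7.29, 7.62, 7.32 and 7.21 with miR-143, against 7.55, 7.40, 7.73 and 7.75 in mock arrays, so that replicate 2 went the other way (0.22). For this set the log2 fold change was -0.25 over all arrays, -0.41 without pair 2 (limma with pairs, adjusted p = 0.0476) and -0.15 without pair 4 (0.845). With array weights and no pairs it was -0.12 (limma, adjusted p = 0.914). With all 4 pairs none of the 3 passed in limma with pairs (adjusted p = 0.165, 0.182 and 0.472).

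CCNE2, cyclin E2, was the other member whose groups did not overlap. Probe set 205034_at read 10.06, 10.05, 9.95 and 9.93 in miR-143 arrays, against 10.30, 10.11, 10.14 and 10.22 in mock arrays, so that the highest miR-143 array lay just under the lowest mock array. Its log2 fold change was -0.20 (95% interval -0.34 to -0.05), with an exact two-sided permutation p of 0.0286, an unadjusted limma p of 0.0125, and an adjusted p of 1 without pairs and 0.184 with pairs. The second probe set, 211814_s_at, had a log2 fold change of -0.12 with overlapping groups (limma with pairs, adjusted p = 0.557). CCNE1, cyclin E1, binds the same kinase, CDK2, as CCNE2. It read 10.42, 10.36, 10.23 and 10.76 with miR-143, against 10.36, 10.35, 10.24 and 10.63 in mock arrays. These groups overlapped, and the log2 fold change was 0.05 (95% interval -0.22 to 0.32, adjusted p = 1 from limma without pairs and 0.832 with pairs). The difference between the changes of the cyclin E genes was not tested.

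With all 4 pairs or without pairs neither CDK4 nor the D cyclins passed, and in each of them the arrays of a group spread more widely than the groups differed. CDK4, the second kinase partner of the D cyclins, read 11.57, 11.43, 11.19 and 12.01 with miR-143, against 11.52, 11.70, 11.36 and 11.98 in mock arrays. Its log2 fold change was -0.09 (95% interval -0.49 to 0.31), with differences of 0.05, -0.27, -0.17 and 0.03 within replicates 1 to 4. CCND1, cyclin D1, read 10.58, 10.33, 10.22 and 11.06 with miR-143, against 10.52, 10.67, 10.59 and 11.16 in mock arrays. It was lower than its mock partner in 3 of 4 replicates, and its log2 fold change was -0.19 at this probe set and -0.26 at 208711_s_at (limma with pairs over all probe sets, adjusted p = 0.443 and 0.238). Without pair 1 the set 208711_s_at passed with pairs (-0.37, adjusted p = 0.0351), and it did not without pair 2, 3 or 4 (0.468, 0.66 and 0.657). CCND3, cyclin D3, read 9.82, 9.73, 9.43 and 10.24 with miR-143, against 9.73, 9.91, 9.46 and 10.09 in mock arrays, a log2 fold change of 0.01 (95% interval -0.39 to 0.40). In all 3 genes replicate 4 was the highest array of both groups, by 0.39 to 0.68 over the mean of replicates 1 to 3. At the brightest CDK6 set this offset was 0.31 with miR-143 and 0.36 in mock arrays, in CDK1 it was 0.16 and 0.22, and in CCNE2 it was -0.09 and 0.04. Without both replicates 4 the log2 fold changes were 0.38 for CDK6, -0.31 for CDK1, -0.16 for CCNE2, -0.22 for CCND1, -0.13 for CDK4 and -0.04 for CCND3, and limma without pairs then called CDK6 (adjusted p = 0.0271) but not CDK1 (0.296) or CCNE2 (0.807).

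CDK2, CCNA2 and CCNB1, the remaining genes of S phase to mitosis, did not follow CDK1 past the test. CCNB1, cyclin B1, read 12.29, 12.45, 12.22 and 12.69 with miR-143, against 12.54, 12.39, 12.45 and 12.86 in mock arrays. Its differences within replicates 1 to 4 were -0.25, 0.06, -0.23 and -0.17, with the positive one in replicate 2, in which CDK1 also differed least. Its log2 fold change was -0.15 (95% interval -0.43 to 0.14, adjusted p = 1 from limma without pairs and 0.455 with pairs), and its second probe set had -0.11. CCNA2, cyclin A2, read 10.99, 11.13, 10.90 and 11.28 with miR-143, against 11.09, 11.05, 10.96 and 11.19 in mock arrays. CDK2 read 10.19, 10.17, 10.04 and 10.39 with miR-143, against 10.23, 10.24, 9.98 and 10.35. Both had overlapping groups. The log2 fold change was 0.003 for CCNA2 (95% interval -0.20 to 0.20) and -0.001 for CDK2 (95% interval -0.22 to 0.22).

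**Figure D2:**
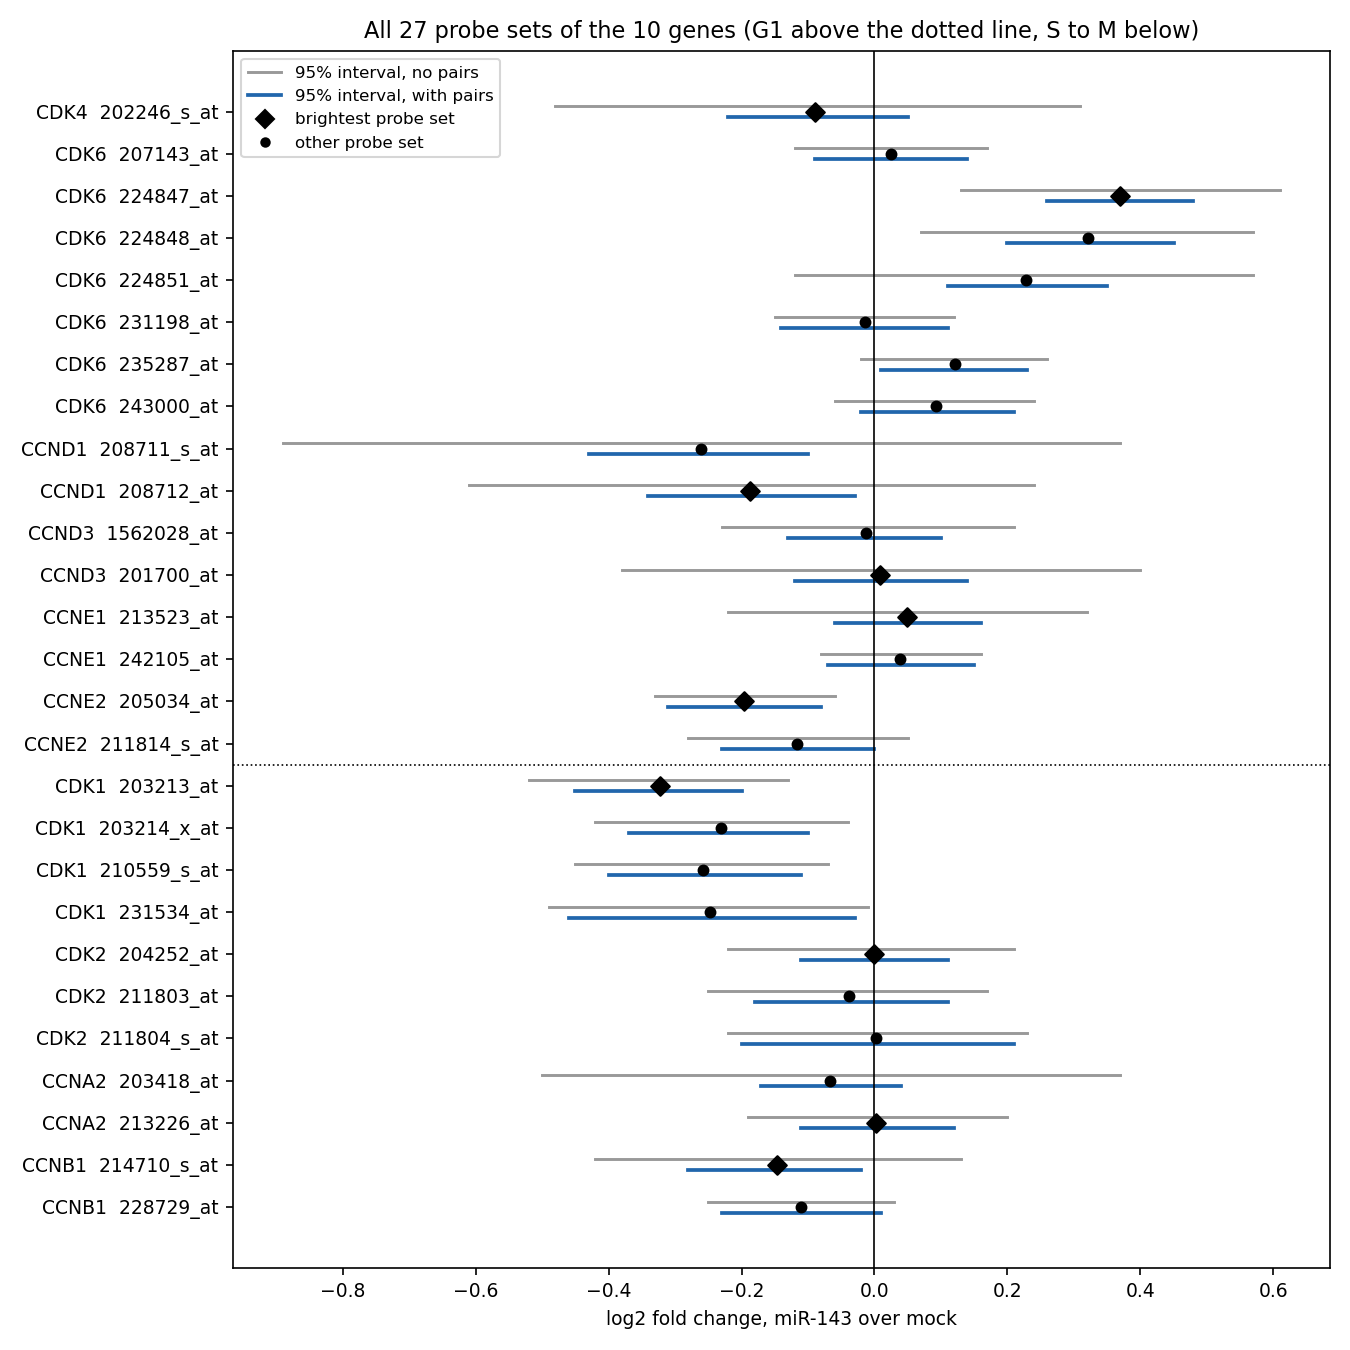
Change in log2 value with miR-143 relative to mock (horizontal axis) for all 27 probe sets, with 95% intervals from limma without pairs (grey) and with pairs (blue), and diamonds marking the brightest probe set of each gene. The 4 CDK1 sets lie between -0.32 and -0.23, whereas the 7 CDK6 sets spread from -0.01 to 0.37.

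Over the 10 genes, limma without pairs called 0, where 0.0% of all genes were called, and limma with pairs called 1 lower and 1 higher, where 0.623% and 0.167% of all genes were. At an unadjusted p under 0.05 without pairs 2 were lower and 1 was higher, as were 1.7% and 0.714% of all genes, and 2 had each miR-143 array below and 1 above each mock array (1.24% and 0.719% of all genes). For the other 7 genes the exact two-sided permutation p of the brightest set lay between 0.371 and 1. Over the 27 probe sets limma without pairs called 0 (0.00243% of all probe sets), at an unadjusted p under 0.05 there were 5 lower (1.86% of all) and 2 higher (0.713% of all), and with pairs it called 1 lower (0.416% of all) and 2 higher (0.11% of all). Each miR-143 array lay below each mock array in 2 of the 27 (1.25% of all) and above in 1 (0.781% of all). Among the G1 sets 7 of 16 had a negative and 9 a positive log2 fold change, and among the S to M sets 9 of 11 were negative. These counts hold several probe sets of a gene, which share its RNA and are not independent. Of the 9 negative S to M sets 4 belong to CDK1, and of the 9 positive G1 sets 6 belong to CDK6.

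The contrast between the phases was smaller than the spread within each of them. The G1 genes had a median log2 fold change of -0.040, with 3 of 6 negative, and the S to M genes one of -0.074, with 3 of 4 negative, beside -0.0091 over all genes, of which 55.6% were negative. The 4184 genes with a higher mean value than CDK6, the dimmest member, had a median of -0.056, and 74.9% of them were negative, so the members lay among bright genes whose values were mostly negative. By replicate number the G1 median was 0.063, -0.114, -0.103 and 0.083, and the S to M median -0.176, -0.003, -0.148 and -0.061. The G1 median thus changed sign among the replicates. The S to M median stayed negative, beside medians of -0.004, -0.006, -0.027 and -0.004 over all genes. In replicate 2 it was not below the value of all genes. In replicates 2 and 4, 2 of the S to M genes were lower and 2 higher. After cyclic loess the G1 median turned positive (0.013, with 3 of 6 negative) and the S to M median was -0.011, with 2 of 4 negative, beside 0.0032 over all genes. Without both replicates 4 the medians were -0.085 for G1 and -0.084 for S to M. The G1 median was positive without mock replicate 4 (0.065), without miR-143 replicate 3 (0.076) and without both replicates 2 (0.016). The S to M median was negative in all these cases (-0.003, -0.014 and -0.120). Over all genes the medians were -0.0032, -0.0002 and -0.0082, so the first S to M value was at that of all genes. No p was computed for these medians, since the genes were not drawn at random.

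**Figure D3:**
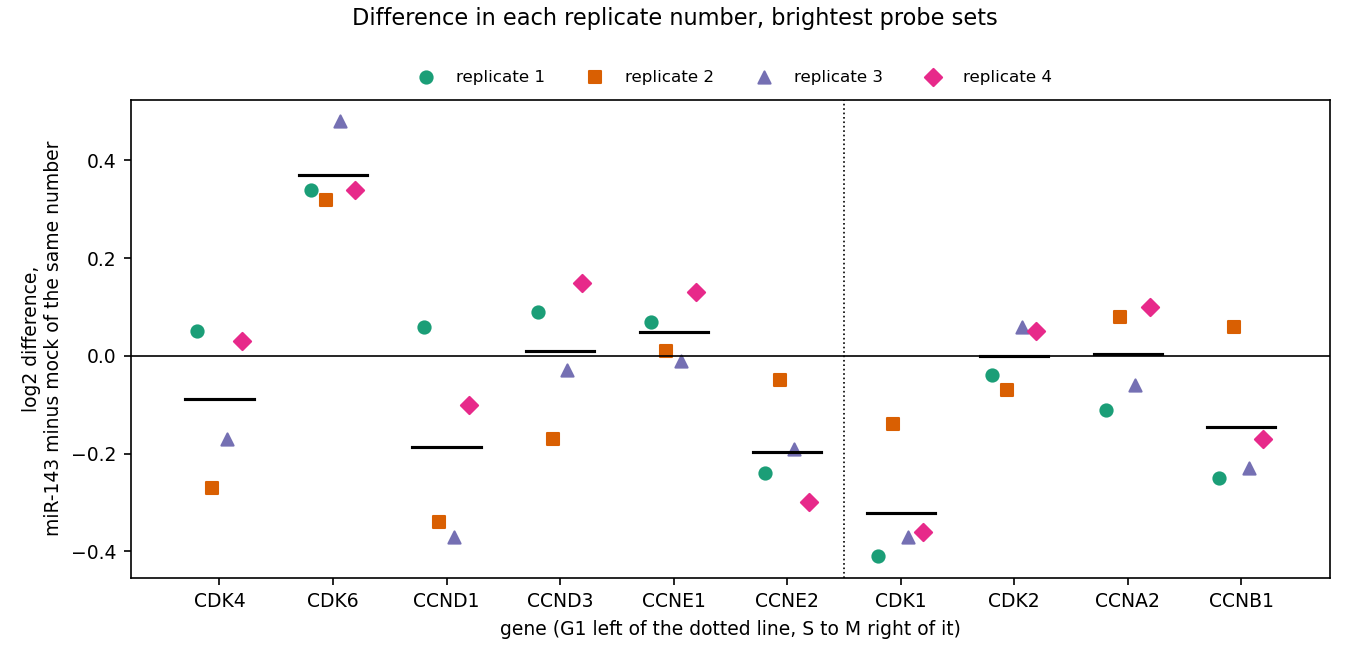
Difference in log2 RMA value, miR-143 minus mock of the same replicate number (vertical axis), for the brightest probe set of each gene, with a bar at the mean of the 4 differences. The 4 differences of CDK6 are positive (0.32 to 0.48) and those of CDK1 and CCNE2 negative (-0.41 to -0.14 and -0.30 to -0.05), while the other 7 genes have differences of both signs.

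The genes whose values across the 8 arrays were most like those of CDK6 were RAB11FIP5, ZNF43 and DCP2, with Pearson r of 0.973, 0.969 and 0.968. For CDK1 they were SLC5A3, DUSP11 and DUBR, with r of 0.992, 0.991 and 0.989. Over the 6 arrays without both replicates 4 these values were 0.955, 0.99 and 0.944 for CDK6 and 0.989, 0.986 and 0.984 for CDK1. The arrays share the offset of replicate 4 and the split into groups, so the coefficients are descriptions only.

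Among the genes around the cyclin-dependent kinases, those that passed with pairs belonged to the retinoblastoma and E2F proteins. Without pairs limma called 0 of the 92 genes of the lists, and at an unadjusted p under 0.05 4 were lower and 2 higher (1.7% and 0.714% of all genes). With pairs 2 were called lower and 0 higher (0.623% and 0.167% of all genes). RBL1, a pocket protein that binds E2F4, read 8.13, 7.71, 8.06 and 7.87 with miR-143, against 8.40, 8.35, 8.33 and 8.43 in mock arrays. E2F8, an atypical E2F that represses E2F target genes, read 9.79, 9.69, 9.64 and 9.55 with miR-143, against 10.17, 9.92, 10.03 and 10.13. In both genes each miR-143 array lay below each mock array. The log2 fold changes were -0.44 for RBL1 and -0.39 for E2F8, with adjusted p of 0.0142 and 0.0131 from limma with pairs and 0.409 and 0.323 without. The call with pairs of RBL1 ended without pair 2 or 4 (0.09 and 0.116), and that of E2F8 without pair 1, 3 or 4 (0.0581, 0.0742 and 0.0754). With the mean over probe sets the value of RBL1 was -0.15 (adjusted p = 0.368 with pairs) and that of E2F8 -0.39 (0.058). Of the 12 genes of this list 9 were negative, with a median of -0.036 (7 and -0.014 after cyclic loess). E2F5 was the positive gene of lowest p, at a log2 fold change of 0.22 (adjusted p = 0.107 with pairs).

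The regulators that switch the kinases on and off did not pass with or without pairs. CDC25A, the phosphatase that removes the inhibiting phosphate from CDK2, averaged 9.82 ± 0.25 with miR-143 and 9.61 ± 0.21 in mock arrays (SD, n = 4 each). Its groups overlapped, and its log2 fold change was 0.22 (limma with pairs, adjusted p = 0.0842, 1 without). FBXW7, the ubiquitin ligase subunit that marks cyclin E for destruction, read 8.81, 8.75, 8.60 and 8.81 with miR-143, against 8.51, 8.48, 8.32 and 8.74 in mock arrays. Its log2 fold change was 0.23 (limma with pairs, adjusted p = 0.103, 1 without), and miR-143 replicate 3 alone lay within the mock range. Of the 14 genes of cyclin ubiquitination, which are ligase subunits and activators with the conjugating enzymes UBE2C and UBE2S and the inhibitor FBXO5, 10 were negative, with a median of -0.044 that turned positive after cyclic loess (0.009, with 6 negative), and the second lowest p was that of CDC16, a subunit of the anaphase-promoting complex, at -0.13 (0.498). Of the 5 kinases and phosphatases around WEE1 and CDC25 2 were negative, with a median of 0.002, and CDC25C was at -0.07 (0.728). The 7 measured CDK inhibitors of 8 listed had a median of -0.004 and lay between -0.11 (CDKN1C, p57, adjusted p = 0.562 with pairs) and 0.08, with -0.10 for the phosphatase CDKN3 (0.631). All 5 genes of the CDK-activating kinase and the CKS subunits were negative, with a median of -0.070, but after cyclic loess 2 of them were, with a median of 0.013. CDK7, the catalytic subunit of that kinase, was at -0.20 (adjusted p = 0.266 with pairs) and CKS2, a small subunit that binds the kinases, at -0.07 (0.802).

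Cyclins and kinases outside the 10 genes gave no call either. Of 10 measured of 11 other cell cycle members 5 were negative, with a median of 0.001, and the lowest p-values with pairs belonged to CCNG2, an unconventional cyclin linked to cell cycle arrest, at -0.19 (adjusted p = 0.21), and CCNB2, which like cyclin B1 binds CDK1, at -0.17 (0.305). Of 11 measured of 12 kinases and cyclins of transcription 10 were negative, with a median of -0.047 (5 and 0.000 after cyclic loess), led by CCNT2, a partner of CDK9, at -0.18 (0.16) and CDK19 at -0.14 (0.44). Of 10 proliferation markers 8 were negative, with a median of -0.107, which was -0.118 without both replicates 4 and -0.001 without mock replicate 4, and after cyclic loess 7 were negative, with a median of -0.024. TOP2A, the topoisomerase of dividing cells, averaged 11.61 ± 0.59 with miR-143 and 11.95 ± 0.54 in mock arrays (SD, n = 4 each), a log2 fold change of -0.34 with overlapping groups (limma with pairs, adjusted p = 0.0671). MCM2, a subunit of the replicative helicase, had -0.29 (0.0986). All 10 colon epithelial markers were negative as well, with a median of -0.069, though after cyclic loess 7 were, with a median of -0.033, and the sum of their log2 values ran from 103.4 to 108.9 with miR-143 and from 105.0 to 109.1 in mock arrays. The lowest p-values with pairs were those of CDH1, at -0.19 (adjusted p = 0.175), and KRT18, at -0.16 (0.236). Of the 8 markers of other cell types 6 were negative, with a median of -0.006, and PECAM1, a vessel marker, was at -0.11 (0.537) and COL3A1, a collagen, at -0.05 (0.828). Their part in the values of the kinases and cyclins was not tested.

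**Figure D4:**
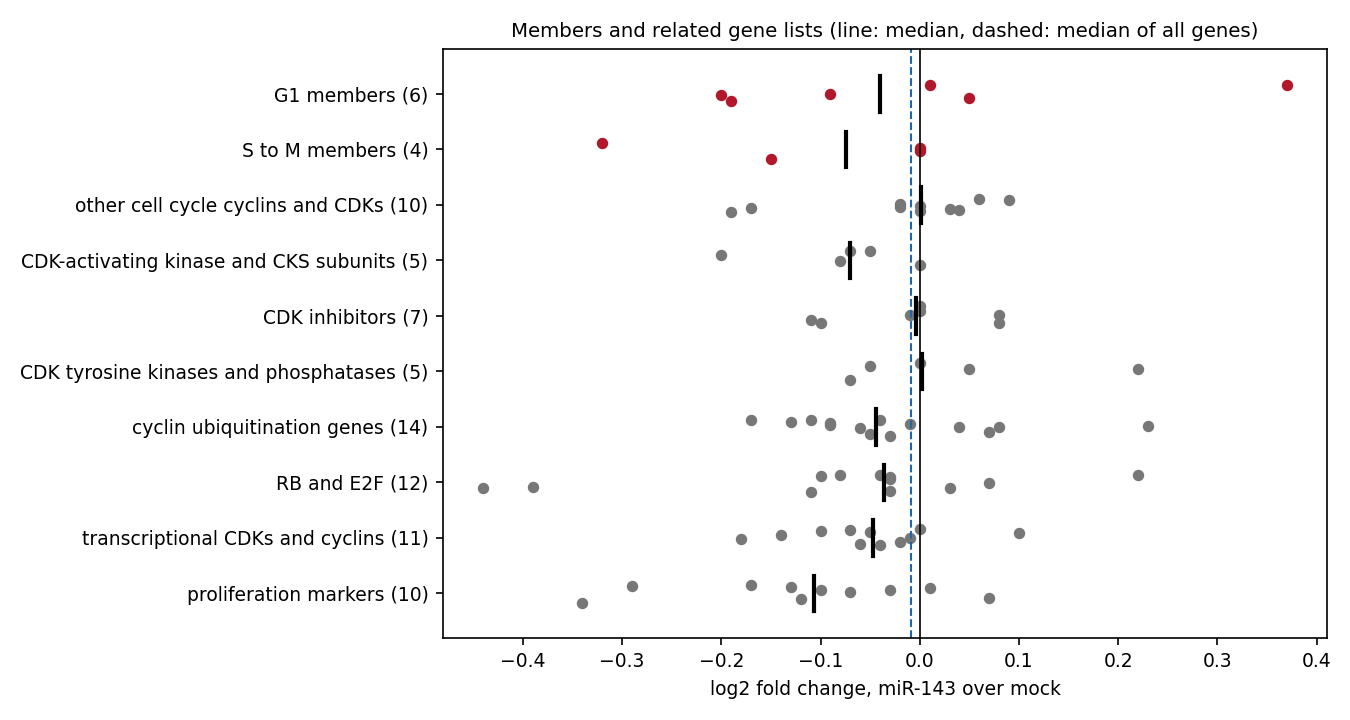
Change in log2 value with miR-143 relative to mock (horizontal axis) for the genes of each list (rows, with the number measured), red for the 10 members and grey for related genes, with a black bar at each median and a dashed line at the median of all genes. The member medians of -0.040 and -0.074 lie within the range of the list medians (-0.107 to 0.002), although the G1 median is positive after cyclic loess (0.013), and the leftmost points are RBL1 (-0.44) and E2F8 (-0.39).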

How the data were processed

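The 8 arrays were grouped by their labels, and the methods call them biological replicates. Per the labels the deposited log2 values were made by the authors with RMA in the affy package (versions, background step and annotation are not given in the sources used here), and they were used as deposited, at 1 value per probe set and array. Probe sets were named from the platform annotation and 43 symbols were brought up to date: 41091 probe sets had 1 gene, 1801 several, 11721 none, and 62 were controls. A gene was represented by its probe set of highest mean (10521 genes had several). The 10 genes, the other 10 lists and the rule on which genes to name were chosen with earlier results of these data known. The rule took all members, each list gene called in either fit and the 2 of lowest p with pairs per list, and the 3 genes most like each member called in any fit. E2F5 and the markers EPCAM, VIL1, CDX1 and LGALS4 were named beside this rule, after their values were seen.

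For each feature miR-143 was set against mock in R 4.3.3 by the moderated, two-sided test of limma 3.58.1 (functions lmFit, then eBayes), over all genes or all single-gene probe sets, with Benjamini-Hochberg adjustment and 0.05 as the threshold. Standard errors and 95% intervals come from the same fits. Single probe sets were also tested with exact permutation tests (scipy 1.17.1, Python 3.11.15). The methods name no pairing. The labels number the replicates 1 to 4 in both groups without saying what a number marks. Same-numbered arrays deviated together across genes, with correlations of 0.11, 0.17, 0.58 and 0.81, all over the limit of 0.1. The numbers were therefore treated as pairs in a second fit. Its adjusted p is printed beside that without pairs or, for many list genes and single probe sets, alone. Across probe sets the correlations were 0.08, 0.11, 0.56 and 0.77, and the first misses the limit. The highest correlation of miR-143 replicates 1 to 4 with a mock array of another number was 0.25, 0.54, 0.49 and -0.31 across genes and 0.17, 0.47, 0.45 and -0.25 across probe sets, above the value of the shared number in replicates 1 and 2. Alternatives were array weights, cyclic loess, the mean over probe sets, filters on level and on interquartile range (0.25), and leaving out arrays or pairs. Of these, cyclic loess with pairs and the mean with pairs were added after seeing the data. The fits were tested on simulated data in which same-numbered arrays were pairs by construction. That test therefore cannot show whether the numbers mark pairs in these arrays. Arrays give no read depth.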

Additional observations from a re-analysis of the deposited data

Results flagged for a closer look

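In CDK6 probe set 224847_at, miR-143 replicate 4 lay far above the other miR-143 arrays, at 9.87 against 9.55 to 9.57, a gap of 0.955 of the range of the group. Mock replicate 4 was also the highest array of its group. In the dim CCNE1 probe set 242105_at, mock replicate 4 lay below the other mock arrays, at 6.80 against 6.93 to 6.95, a gap of 0.833 of the range. In 54 groups of 4 arrays examined this way, chance flags about 1 in 20.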

How the results depend on the processing

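The log2 fold changes of CDK6, CDK1, CCNE2, CCND1 and CCNB1 kept their sign under every alternative in which they were computed. Among all genes the calls numbered 0 in the comparison without pairs, 156 with the replicate block (the pairing), 56 with array weights, 52 after cyclic loess, 43 without both replicates 4, and, in alternatives added after seeing the data, 38 with the mean over probe sets and pairs and 129 with cyclic loess and pairs. Of the 10 members these called 0, 2 (with the replicate block), 1 (weights), 1 (loess), 1 (without both replicates 4), 0 (mean with pairs) and 1 (loess with pairs). Of the 27 member probe sets the calls were 0 without pairs (0.00243% of all) and 3 with the replicate block (0.416% of all lower, 0.11% higher). Calls of member probe sets numbered 1 after loess, 1 without both replicates 4 and 2 after loess with pairs. For these alternatives, and with arrays or pairs left out, the share over all probe sets was not counted. Among the 92 list genes the calls were 0 without pairs, 2 with the replicate block and 2 after loess with pairs. With 1 array or 1 pair left out the calls ranged from 0 to 79 genes, 0 to 2 members, 0 to 3 member probe sets and 0 to 2 list genes, the G1 median from -0.155 to 0.076 and the S to M median from -0.153 to -0.003. Values near 0 changed sign. CCND3 (0.009) was -0.017 with weights, -0.002 with the mean over probe sets (also with pairs) and -0.039 without both replicates 4. CCNA2 (0.003) was -0.003, -0.032 and -0.028 in the same alternatives, and CDK2 (-0.001) was 0.045 after loess (also with pairs). With 1 array or pair left out CCND3 ranged from -0.137 to 0.134, CCNA2 from -0.066 to 0.062, CDK2 from -0.076 to 0.053, CDK4 from -0.243 to 0.031, CCND1 from -0.358 to -0.047, CCNB1 from -0.239 to -0.046 and CCNE1 from -0.057 to 0.128. The filter on interquartile range dropped some members, which then have no value. The causes of these shifts were not tested.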
